A study of Sus scrofa with 35 samples.

Results

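The expression of 50 genes of the cell cycle and of DNA replication was examined in whole blood of growing pigs kept in thermoneutral (TN) or heat stress (HS) conditions. A probe of the array counted as theirs when its gene name, read in capital letters, was exactly the symbol of one of the 50. The list had 37 genes with a probe on the array (59 of its 60305 probes), and 32 of these had a probe in the table of log2 values of the authors (48 of 39072 probes). Results are given for these 32 members, each represented by its probe with the highest mean log2 value over all arrays.

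RNA of whole blood had been hybridised on 35 one-colour arrays, 1 for each castrated male pig. There were 11 Creole pigs (CR, 5 TN and 6 HS), 12 Large White pigs (LW, 6 TN and 6 HS) and 12 pigs of the cross between both breeds (F1, 6 TN and 6 HS). The TN pigs were held at 24 °C. For the HS pigs, the labels give 30 °C and the protocol text 32 °C over 5 days, so the exact temperature is uncertain. All pigs shared a climatic room and a commercial diet, and the labels give no age. Per the methods of the study, TN pigs were slaughtered before the temperature was raised and HS pigs after it, so HS pigs were also older and were sampled on later days. Each pen was slaughtered in a single climate. Climate, age, day of sampling and pen cannot be told apart. Littermates were spread over pens, but the labels give no litter, pen or day, so pigs were treated as independent. Each p-value measures the spread between these pigs. It takes no account of pens, litters or days and may be too small.

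A dividing cell copies its DNA once and then separates the copies. Before S phase, CDC6 and CDT1 load the MCM helicase on replication origins, and GINS, PCNA and the polymerases then work at the fork, with nucleotides provided by TYMS, TK1 and ribonucleotide reductase (RRM1, RRM2). Entry into mitosis depends on CDK1 with its cyclins, the Aurora and Polo kinases build and check the spindle, and the anaphase-promoting complex with CDC20 and UBE2C destroys securin (PTTG1) and cyclin B so that the chromosomes part. Most mature blood cells do not divide. Transcripts of this kind in blood are known from activated lymphocytes and plasmablasts and from immature red cells and granulocytes released by the bone marrow.

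Of the 50 genes, 13 had no probe under their symbol (MAD2L1, TK1, BUB1B, MCM7, TYMS, GINS1, CDT1, MCM4, HMMR, CCNE2, CENPA, MCM5 and CCNA2) and were not analysed here. A further 5 had a probe that was not in the table of the authors (KIF20A, CCNE1, FOXM1, RRM1 and CENPE). Their best probe passed the scanner's test of being well above background on 7 of 35 arrays at most. Of the 48 probes in the table, 40 were well above background on all 35 arrays, and no member spot was saturated. Of the 59 member probes, 19 carried an accession of a pig RefSeq transcript of the same symbol, 38 matched none, and 2 matched another symbol. Both of the latter are named MKI67 on the array, the representative probe among them, but carry the accession of NIFK, a nucleolar protein that binds Ki-67. Values given for MKI67 are those of the array's name and cannot be taken as Ki-67. The representative probes of CDC6, GINS2, PRC1, ECT2 and PTTG1 were among those that matched none, so their identity rests on the array's name. The filter on expressed probes had been applied by the authors over all samples, and its exact rule is not known.

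The arrays differed in brightness. The 75th percentile of the processed intensity lay between 112 and 186 on the F1 TN arrays and between 172 and 266 on the F1 HS arrays, whereas the 4 groups of CR and LW pigs ranged from 145 to 329. The samples carried the marker genes of blood on all 35 arrays, with log2 values of 16.70 to 17.83 for the globin gene HBB, 10.83 to 12.45 for the T cell gene CD3E and 9.57 to 12.05 for the monocyte gene CD14. The arrays lay on 5 slides, each with pigs of several groups, and were read on 1 day. In a mixture of cells such as blood, fewer cells of a type and less RNA per cell cannot be told apart.

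Few members differed between HS and TN pigs over the 3 breeds. CDC6, PRC1, AURKB and ECT2 were lower in HS pigs and GINS2 was higher, so 5 of 32 members passed an adjusted p of 0.05 (limma, Benjamini-Hochberg over 39072 probes). This is 15.6% of the members, against 34.8% of all probes of the table. The study, with pen, day of slaughter and parents also in its model, called far fewer probes in blood at this threshold. The shares called here, of members and of all probes, may therefore be too large. Of the members, 4 fell (12.5%) and 1 rose (3.13%), against 14.7% and 20.1% of all probes. The median of the effect was -0.06 (log2) over the members and 0.06 over all probes. The member median rested on single pigs: it was 0.00 without F1 TN replicate 4, -0.11 without F1 TN replicate 6 and -0.11 without CR TN replicate 1, and it moved by over 1.5 times for 13 of 35 pigs left out in turn. The other 27 members had 95% confidence intervals that included 0, and the widest of these intervals reached -0.93 (CDK1) and 0.47 (NUSAP1). A p-value that misses the threshold does not show that these genes were stable.

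**Figure D1:**
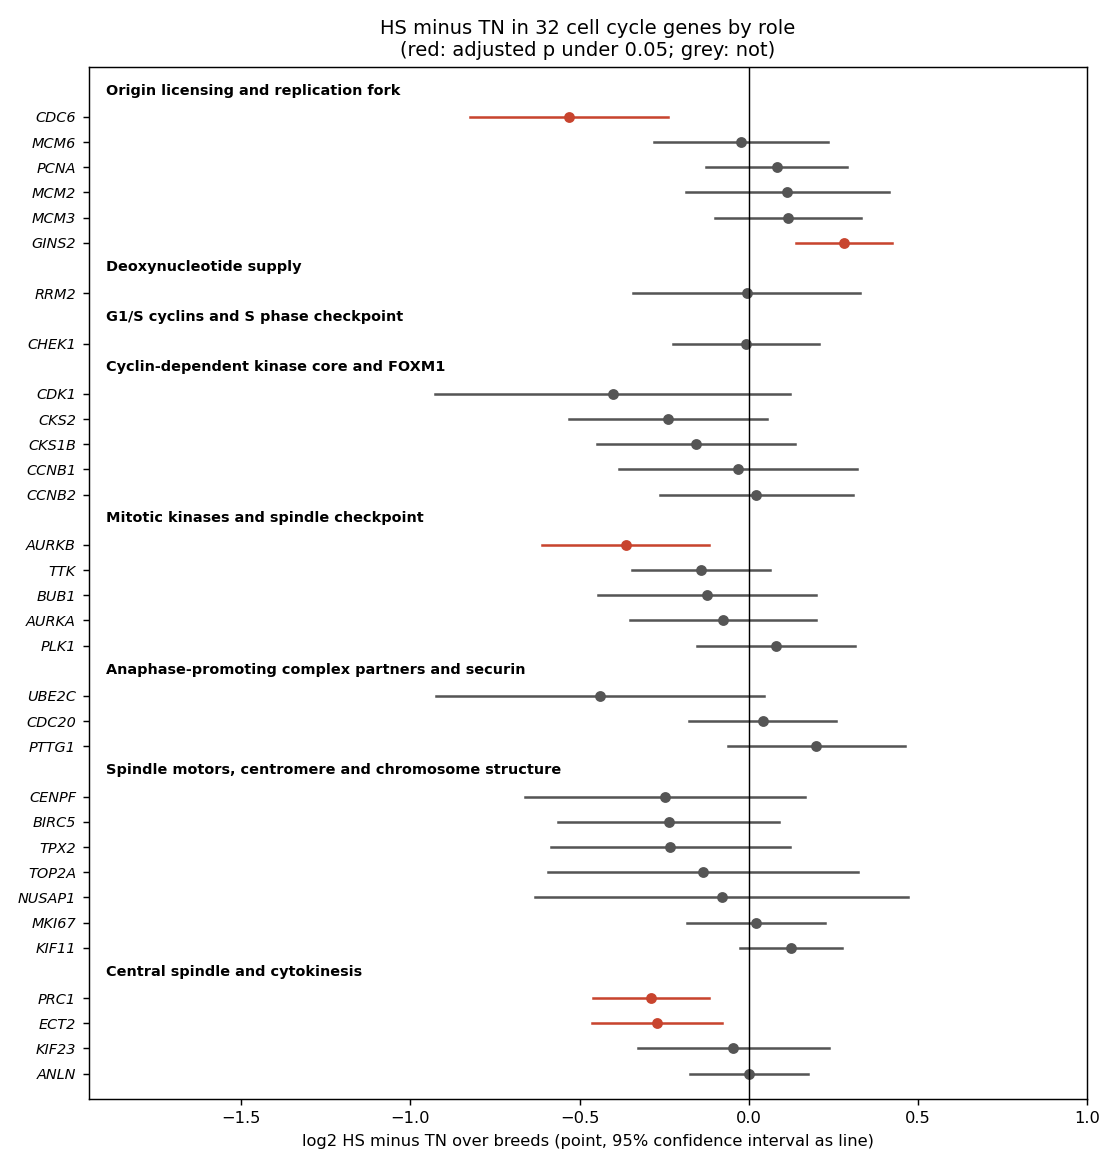
Effect of HS against TN over the 3 breeds in 32 members, on the log2 scale, ordered by role. Points are estimates of limma and lines are 95% confidence intervals, with members past an adjusted p of 0.05 in red. The red points are CDC6, AURKB, PRC1 and ECT2 on the left of 0 and GINS2 on the right, and the longest intervals belong to CDK1, UBE2C, TOP2A and NUSAP1.

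Of the genes of origin licensing and of the replication fork, 6 of 11 were measured. CDC6, the factor that loads the MCM helicase on origins, had log2 values of 9.80, 10.52, 10.77, 10.93 and 11.12 in the CR TN pigs, and the CR HS pigs ranged from 9.79 to 10.99 with a median of 10.17. In F1 pigs, its lowest, median and highest values were 10.94, 11.23 and 11.67 in TN conditions and 9.69, 10.21 and 10.77 in HS conditions. In LW pigs, they were 10.16, 10.91 and 11.09 in TN conditions and 10.30, 10.53 and 10.95 in HS conditions. The HS and TN pigs thus overlapped in CR and LW pigs, and all 6 F1 TN pigs were above all 6 F1 HS pigs. Over breeds, CDC6 fell by 0.53 ± 0.14 (log2, SE, n = 35), a ratio of 0.692 with a 95% confidence interval of 0.565 to 0.847 (limma, adjusted p = 0.00615). Of 18 HS pigs, 15 were below the TN mean of their breed.

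GINS2, a subunit of the GINS complex that activates the helicase at the fork, moved the other way. The CR TN pigs had log2 values of 7.11, 7.27, 7.49, 7.49 and 7.58, and the CR HS pigs ranged from 7.31 to 7.85 with a median of 7.63. F1 pigs had a lowest, a median and a highest value of 7.0, 7.25 and 7.67 in TN conditions and of 7.62, 7.73 and 7.98 in HS conditions. LW pigs had 7.27, 7.42 and 7.69 in TN conditions and 7.34, 7.59 and 7.86 in HS conditions. The highest F1 TN pig alone reached into the range of the F1 HS pigs, while both climates overlapped widely in CR and LW pigs. GINS2 rose by 0.28 ± 0.07 (log2, SE, n = 35), a ratio of 1.21 with an interval of 1.1 to 1.34 (limma, adjusted p = 0.00373), and 15 of 18 HS pigs were above the TN mean of their breed. It was also the member with the smallest spread between pigs of a group (residual SD of 0.19, against a median of 0.42 over the members).

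The other genes of this group did not pass the threshold. PCNA, the sliding clamp of the polymerases, had values of 6.85, 7.0, 7.13, 7.17 and 7.22 in CR TN pigs, and medians between 6.78 (F1 TN) and 7.10 (CR HS and F1 HS) in the other groups. Its effect over breeds was 0.08 ± 0.10 (log2, SE), with an interval of -0.13 to 0.29 (limma, adjusted p = 0.548). MCM2, a subunit of the helicase, had values of 7.0, 7.38, 7.43, 8.01 and 8.04 in CR TN pigs, medians between 7.18 (F1 TN) and 7.86 (CR HS) in the other groups, and an effect of 0.11 ± 0.15 with an interval of -0.19 to 0.41 (limma, adjusted p = 0.563). All groups overlapped for both genes. The effects of MCM3 and MCM6, both further subunits of the helicase, were 0.12 and -0.02.

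To show what was read, the probe of PCNA is printed with those of CDK1 and TOP2A, since these are the usual markers of cycling cells, and with those of PRC1 and ECT2, which were called. The sequences are those of the array files, each 60 bases from 5′ to 3′, and the files place no probe on a chromosome.
PCNA: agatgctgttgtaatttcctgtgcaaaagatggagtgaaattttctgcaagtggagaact
CDK1: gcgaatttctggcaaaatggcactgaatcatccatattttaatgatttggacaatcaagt
TOP2A: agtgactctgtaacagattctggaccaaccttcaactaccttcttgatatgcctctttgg
PRC1: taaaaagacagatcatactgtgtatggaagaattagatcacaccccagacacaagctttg
ECT2: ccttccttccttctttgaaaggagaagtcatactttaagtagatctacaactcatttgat

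Of the 4 genes of deoxynucleotide supply, RRM2, the regulated subunit of ribonucleotide reductase, was measured. The CR TN pigs had log2 values of 9.25, 9.84, 9.90, 10.33 and 10.52, and the medians of the other groups lay between 9.96 (F1 TN) and 10.11 (CR HS). The effect of HS was -0.01 ± 0.17 (log2, SE), with an interval of -0.34 to 0.33 (limma, adjusted p = 0.981). TYMS, the usual marker of this group, had no probe under its symbol. CHEK1, the checkpoint kinase that guards stalled forks, was the single measured gene of the G1/S cyclins and S phase checkpoint, with an effect of -0.01 and an interval of -0.22 to 0.21.

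None of the 5 measured genes of the cyclin-dependent kinase core passed the threshold. At an unadjusted p under 0.05 (limma) only the 5 called members passed among all 32 (15.6%), beside 17968 of all 39072 probes. CDK1, the kinase that starts mitosis, had log2 values of 6.56, 7.07, 7.34, 7.69 and 8.33 in CR TN pigs and ranged from 6.64 to 8.22 (median 6.81) in CR HS pigs. F1 pigs ranged from 5.77 to 9.32 (median 7.33) in TN conditions and from 6.27 to 7.38 (median 6.96) in HS conditions. LW pigs ranged from 6.42 to 8.21 (median 7.40) in TN conditions and from 6.27 to 8.17 (median 6.75) in HS conditions. The F1 TN pigs were the most spread out, and their range held that of the F1 HS pigs. The effect of CDK1 was -0.40 ± 0.26 (log2, SE), with an interval of -0.93 to 0.12 (limma, adjusted p = 0.221).

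CCNB1, its cyclin, had log2 values of 7.60, 8.18, 8.48, 8.61 and 9.20 in CR TN pigs and medians between 8.28 (LW HS) and 8.50 (CR HS) in the other groups, all of which overlapped. Its effect was -0.03 ± 0.17 (log2, SE), with an interval of -0.38 to 0.32 (limma, adjusted p = 0.902). CCNB2, the other B-type cyclin, and the kinase subunits CKS1B and CKS2 had effects of 0.02, -0.16 and -0.24.

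In the group of mitotic kinases and of the spindle checkpoint, 1 of 5 measured genes was called. AURKB, the kinase of the chromosomal passenger complex, had log2 values of 9.09, 9.88, 10.06, 10.41 and 10.70 in CR TN pigs and ranged from 9.48 to 10.29 (median 9.74) in CR HS pigs. F1 pigs ranged from 9.80 to 11.02 (median 10.45) in TN conditions and from 9.23 to 10.20 (median 9.75) in HS conditions. LW pigs ranged from 9.55 to 10.18 (median 10.08) in TN conditions and from 9.79 to 9.93 (median 9.81) in HS conditions. In each breed the ranges overlapped, and 16 of 18 HS pigs were below the TN mean of their breed. In LW pigs the overlap rested on 1 TN pig, replicate 3 at 9.55, the next TN pig being at 10.05. The probe fell by 0.36 ± 0.12 (log2, SE), a ratio of 0.777 with an interval of 0.655 to 0.922 (limma, adjusted p = 0.0206).

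The 3 probes of AURKB did not share this change. The other 2 had effects of -0.09 ± 0.17 and 0.07 ± 0.11 (log2, SE; limma, adjusted p = 0.697 and 0.618), and the longest run of bases that any pair of the 3 probes shared was 7. With the mean of the 3 probes, AURKB was not called (-0.13, adjusted p = 0.404). Across pigs, the probes that were not called followed the other members more closely (r of 0.894 and 0.880 with their mean) than the called one (0.764). BUB1, TTK, AURKA and PLK1, kinases of the spindle checkpoint and of the spindle poles, had effects of -0.12, -0.14, -0.08 and 0.08, none past the threshold.

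In the group of the anaphase-promoting complex partners, the point estimates were spread widely and none of the 3 passed over breeds. UBE2C, its ubiquitin-conjugating enzyme, had the lowest point estimate among members that were not called (-0.44 ± 0.24, log2, SE, interval of -0.92 to 0.04, limma, adjusted p = 0.145). CDC20, its activator, was measured by 2 probes of the same 60 bases, printed here in capitals because they are shared in full and so show how far a repeated measurement differs.
CDC20 first probe: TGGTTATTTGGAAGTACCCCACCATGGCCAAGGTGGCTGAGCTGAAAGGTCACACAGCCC
CDC20 second probe: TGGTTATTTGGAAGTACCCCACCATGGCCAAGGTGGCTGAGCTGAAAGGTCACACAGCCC
The effects read from these were 0.04 ± 0.11 and -0.04 ± 0.11 (log2, SE), and their values correlated with r = 0.891 over the 35 pigs after centring on group means.

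PTTG1, securin, had log2 values of 10.27, 10.43, 10.58, 10.62 and 11.03 in CR TN pigs and ranged from 9.59 to 11.13 (median 10.55) in CR HS pigs. F1 pigs ranged from 9.54 to 10.63 (median 10.28) in TN conditions and from 10.23 to 11.49 (median 10.84) in HS conditions. LW pigs ranged from 10.45 to 11.03 (median 10.78) and from 10.56 to 11.30 (median 10.79). F1 TN pigs stood at the low end, and overlapped with F1 HS pigs. Over breeds, its effect was 0.20 ± 0.13 (log2, SE; limma, adjusted p = 0.226), and the second probe gave 0.20 ± 0.12.

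The group with the most measured genes held the spindle motors and the proteins of the centromere and of chromosome structure, with 7 of 11 genes measured and none called. TOP2A, the topoisomerase that untangles sister chromatids, had log2 values of 7.99, 9.34, 9.36, 9.46 and 9.99 in CR TN pigs and ranged from 8.54 to 10.15 (median 9.02) in CR HS pigs. F1 pigs ranged from 7.54 to 10.58 (median 9.16) in TN conditions and from 7.81 to 9.75 (median 9.10) in HS conditions. LW pigs ranged from 8.52 to 9.97 (median 8.84) in TN conditions and from 7.95 to 9.53 (median 8.97) in HS conditions. No group stood apart, and the F1 TN pigs held both the lowest and the highest value. Its effect was -0.14 ± 0.23 (log2, SE), with an interval of -0.59 to 0.32 (limma, adjusted p = 0.661).

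The representative probe named MKI67, with the accession of NIFK, had log2 values of 9.68, 9.71, 9.78, 9.87 and 10.05 in CR TN pigs, and the medians of the other groups were between 9.61 (F1 TN) and 9.83 (LW TN). The effect was 0.02 ± 0.10 (log2, SE), with an interval of -0.18 to 0.22 (limma, adjusted p = 0.884). A second probe, also with the accession of NIFK, gave 0.02 ± 0.10 and followed the first across pigs (r = 0.875). Another one, whose accession matched no transcript, gave -0.28 ± 0.13 (limma, adjusted p = 0.0942) and followed neither (r of 0.0558 and -0.189), so the probes under this name did not vary together. Its r with the mean of the other members was 0.246, against 0.410 and 0.397 for the probes with the accession of NIFK. The 4 probes of CENPF, a kinetochore protein, correlated with r of 0.889 to 0.942 and had effects between -0.25 and 0.09, none called. The remaining effects of the group ranged from -0.24 for BIRC5, the survivin subunit of the passenger complex, to 0.12 for KIF11, the motor that pushes the spindle poles apart.

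The genes of the central spindle and of cytokinesis held 2 of the 4 falls. PRC1, which bundles the microtubules of the central spindle, had log2 values of 5.88, 5.88, 5.98, 6.30 and 6.32 in CR TN pigs and ranged from 5.46 to 6.20 (median 5.80) in CR HS pigs. F1 pigs ranged from 5.71 to 6.57 (median 6.48) in TN conditions and from 5.47 to 6.09 (median 5.78) in HS conditions. LW pigs ranged from 5.79 to 6.12 (median 5.91) and from 5.75 to 6.01 (median 5.85). Climates overlapped in all 3 breeds, and 15 of 18 HS pigs were below the TN mean of their breed. PRC1 fell by 0.29 ± 0.08 (log2, SE), a ratio of 0.818 with an interval of 0.726 to 0.921 (limma, adjusted p = 0.00944). The probe was dim (mean log2 value of 5.96), and the size of its fall depended on the processing. The effect was -0.68 on processed intensity, beyond the lower end of the interval (-0.46 in log2), and -0.21 with another background correction.

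ECT2, the exchange factor that triggers the contractile ring, had log2 values of 7.29, 7.31, 7.52, 7.76 and 7.89 in CR TN pigs and ranged from 7.07 to 7.89 (median 7.44) in CR HS pigs. F1 pigs ranged from 7.25 to 8.20 (median 7.95) in TN conditions and from 7.09 to 7.74 (median 7.15) in HS conditions. LW pigs ranged from 7.35 to 7.83 (median 7.61) and from 7.29 to 7.89 (median 7.47). Among F1 TN pigs a single one, at 7.25, lay within the range of the F1 HS pigs. ECT2 fell by 0.27 ± 0.09 (log2, SE), a ratio of 0.83 with an interval of 0.726 to 0.947 (limma, adjusted p = 0.0262), and 16 of 18 HS pigs were below the TN mean of their breed. The effects of KIF23, the motor of the central spindle, and ANLN, the scaffold of the contractile ring, were -0.05 and -0.00.

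Whether the effect of climate differed between breeds was then examined. In F1 pigs, 6 of 32 members passed (18.8%), against 38.7% of all probes. AURKB, CDC6, ECT2 and PRC1 fell (12.5%, against 17.9% of all probes), and GINS2 and PTTG1 rose (6.25%, against 20.8%). The falls on the log2 scale were -1.07 ± 0.22 for CDC6, -0.71 ± 0.20 for AURKB, -0.57 ± 0.15 for ECT2 and -0.55 ± 0.13 for PRC1 (limma, adjusted p of 0.000743, 0.00705, 0.00471 and 0.00246). GINS2 rose by 0.47 ± 0.11 and PTTG1 by 0.60 ± 0.21 (limma, adjusted p of 0.00246 and 0.0244), and the second probe of PTTG1 gave 0.63 ± 0.20 (adjusted p = 0.0145). The probe named MKI67 whose accession matched no transcript also fell in F1 pigs, by 0.57 ± 0.23 (limma, adjusted p = 0.0438). The probes of this name with the accession of NIFK did not (0.09 and 0.21).

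Within CR and within LW pigs, 0 of 32 members were called, as were 0% of all probes in CR pigs and 0% in LW pigs (limma). At an unadjusted p under 0.05 no member passed in either breed, while 3466 and 3404 of all 39072 probes did. CDC6 had effects of -0.31 ± 0.24 in CR pigs and -0.20 ± 0.22 in LW pigs, PRC1 of -0.25 ± 0.14 and -0.07 ± 0.13, and GINS2 of 0.20 ± 0.12 and 0.16 ± 0.11 (log2, SE). The point estimates of all 5 genes called over breeds had the same sign in the 3 breeds. In LW pigs, 28 of 32 members had a point estimate below 0 (median -0.15, against 0.01 over all probes), whereas 16 were below and 16 above 0 in CR pigs. The members varied together across pigs, so these are not 28 separate observations. LW HS replicate 1 alone was the lowest of its group for 21 members.

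A test of the interaction of breed and climate called 0 of 32 members, and 0% of all probes (limma F test). Before adjustment, CDC6 and PRC1 had p-values of 0.0204 and 0.0486 by this limma F test over 35 pigs, and 5807 of all 39072 probes were under 0.05. The adjusted values were 0.279 and 0.335, so a difference between breeds was not shown for any member. CDC6 was the one member whose F1 HS and F1 TN pigs did not overlap (3.13% of the members, against 11.7% of all probes).

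**Figure D2:**
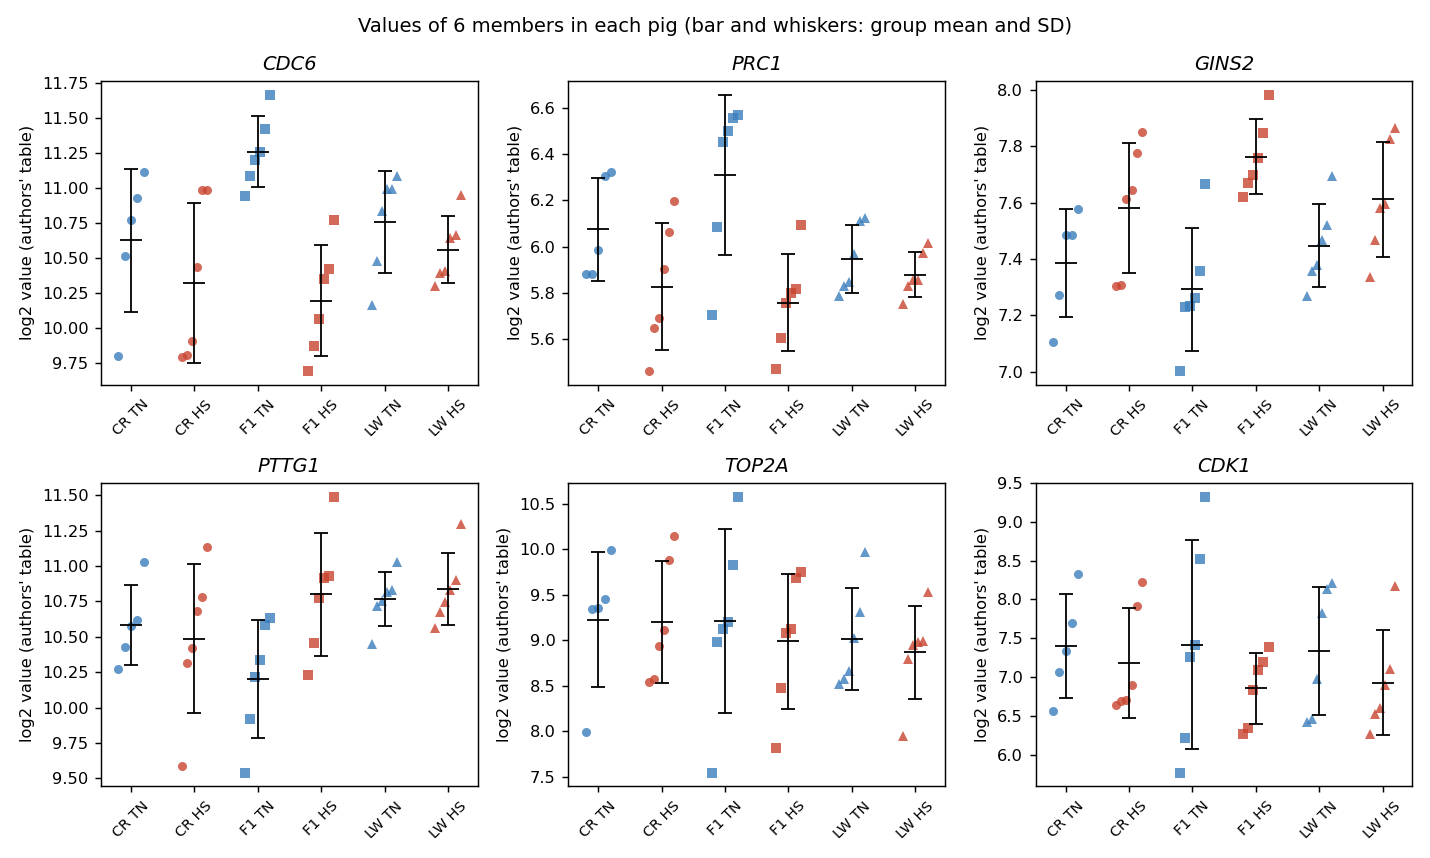
The log2 values of CDC6, PRC1, GINS2, PTTG1, TOP2A and CDK1 in each of 35 pigs, by breed and climate (blue for TN, red for HS), with bars for the group mean and SD. The F1 TN pigs are the highest group for CDC6 and the lowest for PTTG1, while the groups overlap throughout for TOP2A and CDK1.

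The effects of CDC6, AURKB, PRC1 and ECT2 were smaller with measures of the blood mixture or of the array in the fit, and that of GINS2 stayed between 0.25 and 0.30 with each of 4 such covariates. Of 17 measured genes of the erythroid list, which are transcripts of immature red cells, 8 fell (47.1%, against 14.7% of all probes) and 1 rose in HS pigs over breeds (limma), with a median effect of -0.54 and a mean level over the list of 11.10 in F1 TN and 10.21 in F1 HS pigs. The list mean ranged from 9.20 to 12.07 over pigs, and none of its 17 genes was near background, since each was well above it on at least 34 arrays. With this mean as a covariate, no member was called over breeds and 2 of all probes were. The effects became -0.29 for CDC6, -0.05 for AURKB, -0.10 for both PRC1 and ECT2 and 0.28 for GINS2 (limma, adjusted p of 0.236, 0.791, 0.416, 0.549 and 0.0913). In F1 pigs, CDC6 and GINS2 were still called with this covariate (-0.74 and 0.51), and MCM6 was called as well (0.61, limma, adjusted p = 0.0461). These were 3 of 32 members, beside 10.3% of all probes called in the same fit.

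Without the F1 pigs, 0 of 32 members and 0 of all probes were called over breeds, with effects of -0.25 for CDC6, -0.15 for PRC1 and 0.18 for GINS2. The F1 TN arrays were also the dimmest. With the log2 75th percentile of each array as a covariate, 2 of 32 members were called over breeds, beside 17.2% of all probes. CDC6 and GINS2 remained called (-0.27 and 0.25, limma, adjusted p of 0.0200 and 0.0195). Within F1 pigs, 0 of 32 members and 0 of all probes were called with this covariate. There, GINS2 had an effect of 0.44 and CDC6 of -0.31 (limma, adjusted p of 0.159 and 0.375). The brightness of the F1 TN and F1 HS arrays barely overlapped, so brightness and climate cannot be told apart in this breed. Of 11 T cell genes, 3 rose (27.3%, against 20.1% of all probes) and none fell in HS pigs, with a median of 0.15. With the mean of that list as a covariate, 2 of 32 members were called over breeds, beside 18.7% of all probes. They were CDC6 at -0.31 and GINS2 at 0.27. The mean of the immature neutrophil list as a covariate left all 5 called, beside 32.0% of all probes. The part of these measures in the effects was not tested further.

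**Figure D3:**
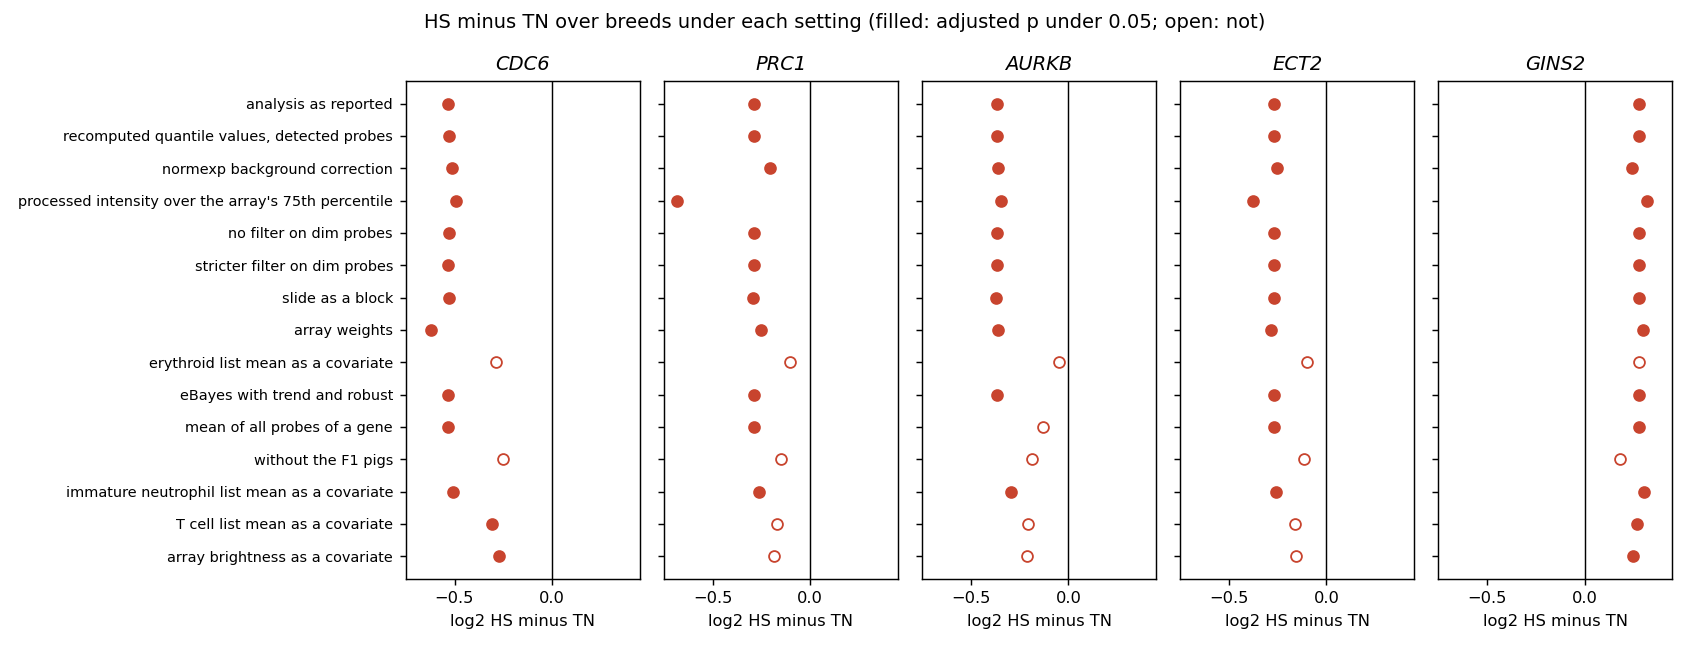
Effect of HS against TN over breeds (log2) for the 5 called members under the reported analysis and 14 other settings, filled where the adjusted p was under 0.05. All 5 keep their sign in every setting, and all are open circles with the erythroid mean as a covariate and without the F1 pigs.

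Within slides, where breed was kept as a term, the direction was that of the whole set for the called members. On the 4 slides that held both climates of a breed, the effect was between -0.89 and -0.11 for CDC6, between -0.51 and -0.13 for PRC1, between -0.46 and -0.22 for AURKB, between -0.48 and -0.01 for ECT2 and between 0.20 and 0.36 for GINS2. For TOP2A it ranged from -0.87 to 0.01 and for CDK1 from -1.09 to -0.05. The median over the members was -0.26, 0.03, -0.21 and -0.05 on the 4 slides. On the fifth slide each breed had pigs of 1 climate, so no such value was available.

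Between breeds, no member passed. The count was 0 of 32 for CR against LW (1.08% of all probes called), for F1 against LW (0.0256%) and for F1 against CR (0.184%). At an unadjusted p under 0.05 the counts were 0, 0 and 1 (limma), beside 3950, 1751 and 1933 of all 39072 probes. The 1 member was BIRC5, named here because it was the single one. It had an effect of 0.43 (log2, F1 minus CR, adjusted p over all probes of at least 0.941 for every member). The point estimates of the members ranged from -0.28 to 0.31 for CR minus LW and from -0.30 to 0.43 for F1 minus LW. PTTG1 had the lowest value in both (-0.28 and -0.30) and NUSAP1, a protein that binds spindle microtubules, the highest (0.31 and 0.43).

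The members also varied between pigs of the same group. After each value was centred on the mean of its group, the residual SD of the members ranged from 0.19 (GINS2) to 0.84 (NUSAP1), and the members went up and down together. The median Pearson r over the 496 pairs of members was 0.499 in the 35 pigs, and 454 pairs were above 0. As the points share arrays, slides and the mixture of cells, these correlations are descriptions without a test. Of 32 members, 24 had an r above 0.5 with the mean of the others (75%), against 4.87% of the other probes of the table with the mean of all members.

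TPX2, the spindle assembly factor that activates AURKA, was the closest to the rest (r = 0.972, Spearman rho of 0.962), and TOP2A, CCNB1, BUB1, AURKA, UBE2C, CKS1B and RRM2 followed with r from 0.940 to 0.905. Centring within slides as well gave 0.975 for TPX2 and 0.936 for TOP2A. These genes act from S phase (RRM2) to anaphase (UBE2C), so the shared variation crossed the roles. At the other end, PTTG1 (0.0693), CDC6 (0.117), KIF11 (0.130), ANLN (0.169), ECT2 (0.236), GINS2 (0.326), the probe named MKI67 (0.410) and PRC1 (0.427) had r below 0.5. Thus 4 of the 5 members called for climate, with AURKB (0.764) as the exception, were among the 8 that followed the others least. The representative probes of CDC6, PRC1, ECT2, GINS2, PTTG1, KIF11 and ANLN matched no pig RefSeq transcript, whereas that of AURKB matched its own symbol. Those of TPX2, BUB1 and RRM2, which were close to the rest, matched none either. The part of probe identity in these r was not tested. The lowest r of a pair was -0.514, between ECT2 and KIF11.

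**Figure D4:**
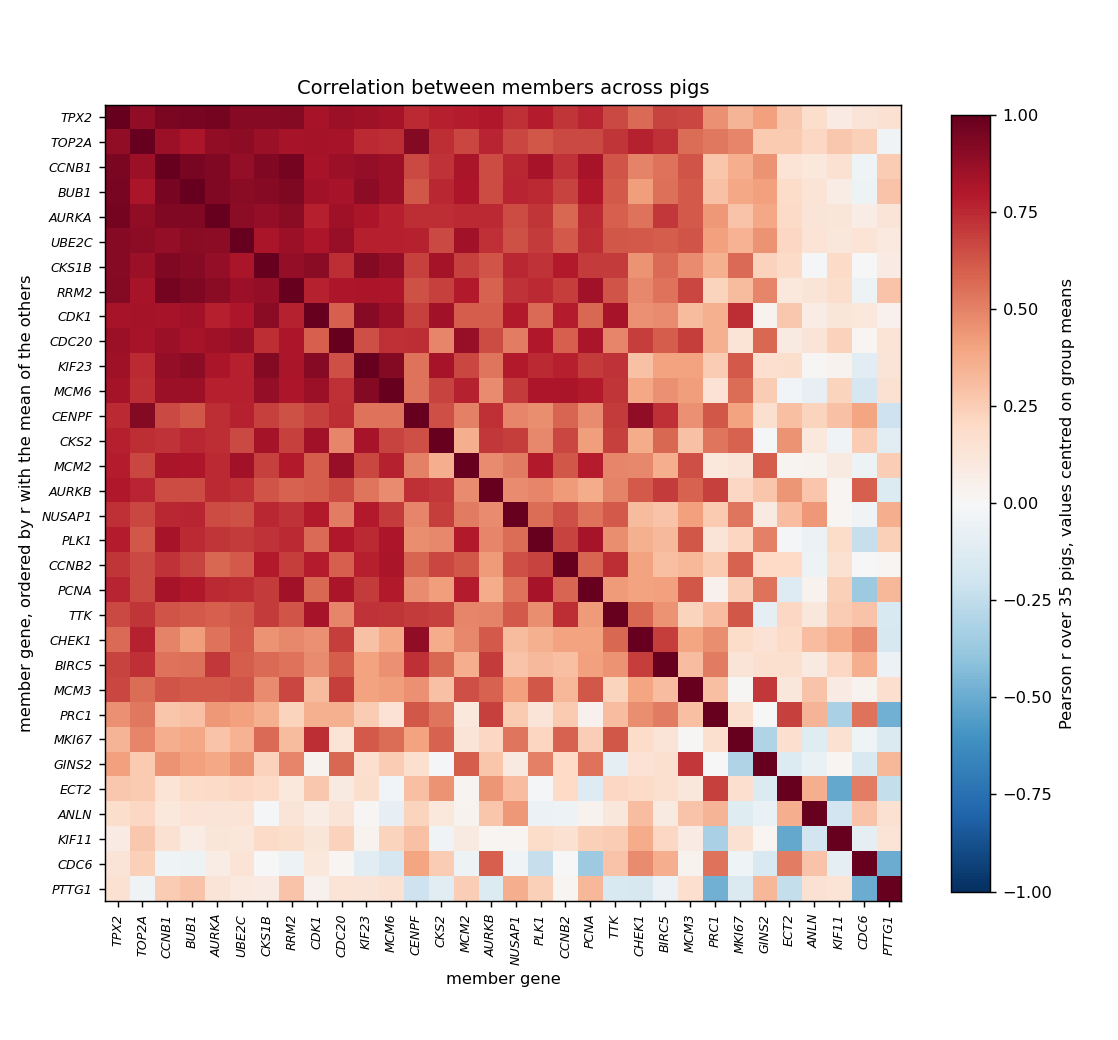
Pearson r between 32 members over 35 pigs, on values centred on group means, from -1 (blue) to 1 (red), with members ordered by their r with the mean of the others. A red block runs from TPX2 to MCM3, and PRC1, MKI67, GINS2, ECT2, ANLN, KIF11, CDC6 and PTTG1 are pale at its edge.

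Single pigs carried many of the members at once. One F1 TN pig was the highest of its group for 24 of 32 members, and its mean z value was 1.80, while another was the lowest for 20 members, with a mean of -1.52. In CR TN pigs, one pig was the highest for 20 and another the lowest for 27 members (mean z of 0.99 and -1.38). TOP2A was 10.58 and 7.54 in these F1 TN pigs and 9.99 and 7.99 in these CR TN pigs. The SD of F1 TN pigs was 1.34 for CDK1 (n = 6), against 0.46 in F1 HS pigs, and 0.82 for RRM2, against 0.35. The representative probe named MKI67, with the accession of NIFK, had its CR TN maximum of 10.05 in the CR TN pig that was lowest for 27 members.

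The mean of the members was set beside lists of marker genes in the same pigs, centred on group means. It went with the immature neutrophil list (MPO, ELANE, PRTN3 and LTF, granule proteins made in marrow precursors; r = 0.805, rho = 0.773), with the early erythroid and stem cell list (6 genes, KIT, GATA2, MYB, EPOR, TFR2 and CNRIP1; r = 0.735) and with the erythroid list (17 genes; r = 0.695). When the 2 pigs farthest from the median of the list were left out, these values were 0.754, 0.686 and 0.677. Within TN pigs the r were 0.849, 0.758 and 0.861, and within HS pigs 0.807, 0.705 and 0.570. The list of mature neutrophil genes gave 0.595. For T cell (-0.321), B cell (-0.0962), plasma cell (0.0769), cytotoxic and NK cell (-0.0400), monocyte (-0.172) and platelet (-0.00871) lists the values were closer to 0, as for the brightness of the array (-0.207). They were less even between climates, with -0.460 in TN and -0.179 in HS pigs for the T cell list, -0.408 and 0.228 for the B cell list, and -0.127 and 0.448 for the plasma cell list. Without the 2 farthest pigs, the T cell list gave -0.423.

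**Figure D5:**
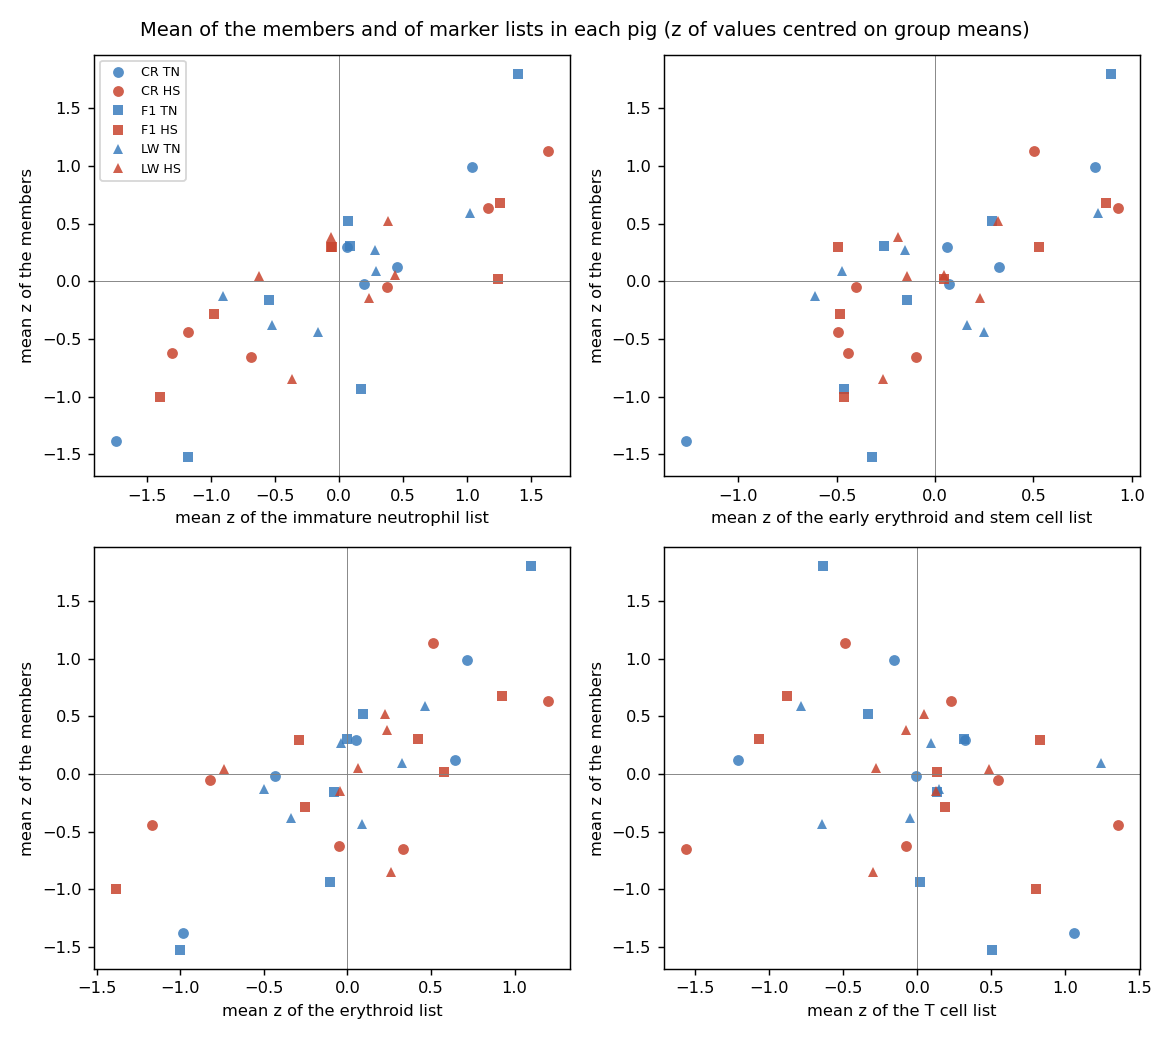
Mean z of the members against mean z of 4 marker lists in each of 35 pigs, after centring on group means (circles CR, squares F1, triangles LW; blue TN, red HS). Pigs line up with the immature neutrophil list (r = 0.805) and the early erythroid list (r = 0.735), and less so with the T cell list (r = -0.321).

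The called members differed in the lists they went with. CDC6 had an r of -0.744 with the T cell list and of 0.601 with the early erythroid list, 0.563 with the erythroid list and 0.233 with immature neutrophils. PRC1 had -0.703 with the T cell list and 0.715 with the erythroid list, 0.576 with the early erythroid list and 0.497 with immature neutrophils, and ECT2 had -0.553 with the T cell list and 0.591 with the erythroid list. AURKB had 0.824 with early erythroid, 0.767 with erythroid, 0.696 with immature neutrophil and -0.631 with T cell genes. GINS2 had 0.607 with the platelet list and 0.368 with immature neutrophils. Its r was 0.263 with early erythroid, 0.0462 with erythroid and -0.000509 with T cell genes. Of members not called over breeds, PTTG1 had -0.717 with the monocyte list. The probe named MKI67 (accession of NIFK) had -0.723 with the platelet list. TOP2A, for comparison, had 0.830 with immature neutrophils and 0.767 with the early erythroid list.

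Probes of the same gene gave a measure of how well these correlations were read. The probes of CKS1B, a regulator of CDK1, correlated with r of 0.968 to 0.974, those of CDK1 with 0.987 and those of PTTG1 with 0.967. Of the 3 probes of AURKA, the kinase of the spindle poles, 2 overlapped in sequence. They are printed with the 27 shared bases in capitals, because overlap did not make them alike.
AURKA first probe: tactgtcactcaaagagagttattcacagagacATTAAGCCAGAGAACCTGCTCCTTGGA
AURKA second probe: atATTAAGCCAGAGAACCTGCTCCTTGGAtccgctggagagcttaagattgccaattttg
These 2 probes correlated with r = 0.580, below the 0.769 and 0.735 that each had with the third probe, which shares at most 7 bases with them. The 2 overlapping probes were also dimmer (mean log2 values of 5.68 and 6.19) than the third (7.95). The part of low signal in their r was not tested.

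The genes outside the list whose values were most like the mean of the members, among 13142 named genes, were KIF4A (r = 0.969), MYBL2 (0.962), LOC100518243 (0.952), SPAG5 (0.948), KIFC1 (0.943), GPR19 (0.942), a transcript without a symbol (0.940), CDCA3 (0.936), KIAA0101 (0.929) and ERN2 (0.928). KIF4A and KIFC1 are mitotic motors, SPAG5 is a spindle protein and MYBL2 is a transcription factor of cycling cells. None of the 10 was called for HS against TN over breeds, with effects between -0.27 for GPR19 and -0.01. The likeness was computed over the 35 pigs after centring on group means.

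Other genes of the cycle were counted from lists, members left out. Of 22 measured replication polymerases and origin factors, 4 rose and none fell over breeds (18.2% called, against 34.8% of all probes, with a median of 0.11): RFC2, a subunit of the clamp loader (0.39), POLD3, a subunit of polymerase delta (0.36), PRIM2, a primase subunit (0.28), and LIG1, the ligase of Okazaki fragments (0.16). Of 14 subunits and partners of the anaphase-promoting complex and of the SCF ubiquitin ligase, 8 rose and 1 fell (median 0.20). The rises were 57.1% of the list and the fall 7.14%, against 20.1% and 14.7% of all probes. Together 64.3% were called, against 34.8% of all probes. SKP2, the substrate receptor of SCF, had the largest rise (0.37) and SKP1, its adaptor, fell by 0.53. Of 10 E2F and pocket protein genes, 3 fell (30.0%, against 14.7% of all probes) and none rose, with TFDP2 (-1.28), E2F1 (-0.50) and E2F4 (-0.31), all of them transcription factors of the G1/S transition or their partners.

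Of 9 G1 cyclins and their kinases, CCND2 (0.43), CCND3 (0.24) and CDK2 (0.21) rose and CDK4 (-0.23) fell. Thus 44.4% of this list were called, against 34.8% of all probes. Of 18 inhibitors of cyclin-dependent kinases and p53 targets, 2 rose and 3 fell (27.8% called, against 34.8% of all probes). Among them were CDKN3 (-0.80), a phosphatase of CDK2, and CDKN2C (-0.60), an inhibitor of CDK4 and CDK6. Of 31 genes of the kinetochore, cohesin and condensin, 1 rose and 2 fell (9.68% called, below the 34.8% of all probes), namely BUB3, a checkpoint protein (0.18), SMC1A, a cohesin subunit (-1.01), and CDCA5, the cohesin regulator sororin (-0.66). All these calls used limma with adjustment over 39072 probes.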

How the data were processed

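Whole blood RNA of 35 pigs had been labelled with 1 dye and hybridised on porcine Agilent arrays, 1 array per pig. Per the file headers, the arrays were read with Agilent Feature Extraction 10.10.1.1, and the deposited scanner files hold the raw intensity of each spot and its local background. A table of log2 values was deposited as well, made by the authors by quantile normalization of the median intensity between arrays with a filter on expressed probes. These log2 values were used here as given, and 0 of the value columns were left without a sample. Quantile values recomputed from the intensity differed from them by a median of 0.00189 and at most 0.35 (log2). Arrays of a same group correlated with r of 0.945 to 0.992, and none were identical.

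Each probe was fitted in R 4.3.3 with limma 3.58.1 (lmFit, eBayes, two-sided), with breed and climate as additive terms, or with the 6 group means for effects within breeds and the interaction. P-values were adjusted by Benjamini-Hochberg over 39072 probes, with a threshold of 0.05. The function was tested on simulated data. The study also fitted pen, day of slaughter and parents, which the labels do not give. Precision is bounded by how many arrays there were.

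The members, lists and tests were chosen with earlier results of these data known. Each member was represented by its probe with the highest mean. Members named with values were those called over breeds (up to 15) or between breeds (up to 5 per contrast), the markers MKI67, TOP2A, CDK1, CCNB1, PCNA, MCM2, TYMS and RRM2, and any with probes called in opposite directions (none). Other members are named for their role. Alternatives were other normalizations and filters, slide, array weights, marker lists and brightness as covariates, other moderation, the mean of all probes and leaving out pigs or the F1 pigs. Of these, the immature neutrophil, T cell and brightness covariates were chosen after seeing the data.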

Additional observations from a re-analysis of the deposited data

Results flagged for a closer look

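In 192 sets of a member and a group, 10 (5.21%) had 1 pig whose gap to its nearest neighbour was large for the range of the group, a rate close to the 5% that chance alone gives this criterion. Of these, 3 were the lowest value of the same CR TN pig, replicate 1, at 7.64 for CENPF, 6.74 for CHEK1 and 5.23 for ANLN, and this pig was the lowest of its group for 27 of 32 members. In LW HS replicate 1, PCNA (6.44) and MCM6 (7.08) were low. In LW TN pigs, AURKB was low in replicate 3 (9.55) and MCM2 was high in the same pig (8.01), and MCM3 was high in replicate 4 (7.36). KIF23 was high in CR TN replicate 4 (6.86). ECT2 was low in F1 TN replicate 6 (7.25, the next pig being at 7.90), the pig behind the overlap of the F1 climates for this gene.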

How the results depend on the processing

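Of 14 other settings, 10 kept the count of members called over breeds near 5 (4 to 6). These called 21.2% to 46.9% of all probes. The count of members was 0 with the erythroid list mean as a covariate (0.00512% of all probes) and 0 without the F1 pigs (0%). It was 2 with the T cell list mean (18.7%) and 2 with array brightness as a covariate (17.2%). In F1 pigs, where 6 members were called, these covariates gave 3, 2 and 0 members for erythroid, T cell and brightness, respectively. Of all probes, they called 10.3%, 9.61% and 0% in F1 pigs. The setting without F1 pigs gives no value there. For CR against LW, 2 of 32 members (BIRC5 and CDC6) were called with the T cell covariate. So were 17.6% of all probes, against 1.08% without it. The T cell, brightness and immature neutrophil covariates were chosen after seeing the data, and the cause of these changes was not tested. No called effect changed sign. Leaving out each of 35 pigs in turn left 5 to 5 members called over breeds, 5 to 8 in F1 pigs, and 0 to 0 in the other comparisons. Of all probes, 29.7% to 42.0% were called over breeds in these fits and 29.4% to 42.2% in F1 pigs. PTTG1 in F1 pigs was called in 31 of these 35 fits. AURKB was called under 9 of 14 settings, and not with the mean of its 3 probes. The fall of PRC1 was larger on processed intensity (-0.68, and -1.31 in F1 pigs). No paired analysis was possible because the replicate numbers are not in the labels and pair no pigs across groups.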
